A study of Xenopus laevis with 31 samples.

Results

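Nodal ligands are secreted proteins of the TGF-beta family. They bind activin-type receptors on the cell surface, and the receptors activate Smad proteins that enter the nucleus and switch on target genes. In the gastrula of Xenopus laevis, the African clawed frog, this pathway is known for inducing endoderm in the vegetal cells and mesoderm in the equatorial belt above them. Cerberus-Short is a shortened form of the secreted antagonist Cerberus that binds Nodal ligands and leaves them unable to signal. The comparison described here asked which transcripts of the gastrula depend on that signal.

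The comparison holds 12 of the 31 Affymetrix Xenopus arrays of the study, taken as all arrays labelled with the condition Cerberus-Short or with the stage 11 control condition. The Cerberus-Short group (n = 3) consisted of stage 11 whole gastrulae that had received 1 ng of Cerberus-Short RNA in the vegetal region at the 2-cell stage. The control group (n = 9) consisted of stage 11 whole gastrulae, for which the labels give no injection, and the title of 1 of them says uninjected. No group received a control RNA, so effects of injection and of Nodal inhibition cannot be told apart. Each whole-embryo sample pooled about 20 sibling embryos of a single mating, and the labels number the samples of a group as biological replicates without marking which came from a shared mating. The p-values therefore reflect the spread among such samples within groups, estimated over all 31 arrays and not the 12 alone. Other arrays served as a second readout of the same probe sets. These were stage 11 explants of the vegetal region (n = 2), the equatorial region (n = 2) and the animal cap, which forms ectoderm and was cut at stage 9 (n = 3), each pooling about 50 explants, and also unfertilised eggs (n = 3) and stage 18 whole embryos (n = 4). Gastrulae injected with 40 ng of a Mixer morpholino (Mixer-MO, n = 2, of which the title of 1 gives a lower dose) or with 3 Sox17 morpholinos at 20 ng each (Sox17-MO, n = 3) were compared directly with the Cerberus-Short group.

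The tables used here do not pair probe sets with genes. Probe sets are therefore described by identifier for 2 that fell and 2 that lay higher, and otherwise in groups by their level in the explants. For the same reason the Cerberus RNA, the markers of each tissue and the prepared gene lists were not analysed here. Values are linear intensities normalised by the authors and analysed as log2, and a probe set was called at an adjusted p under 0.05 (limma, Benjamini-Hochberg over all 15443 probe sets tested). Median intensity per array ran from 66.8 to 76.9 in the Cerberus-Short group and from 66.6 to 76.0 in the controls. The log2 difference between 3' and 5' probe sets, a measure of RNA integrity, ran from 1.94 to 3.15 for GAPDH in the Cerberus-Short group and from 1.65 to 3.90 in the controls. For beta-actin it ran from -2.92 to 0.43 in the Cerberus-Short group and from -3.71 to 0.90 in the controls. Negative values mean a brighter 5' than 3' probe set, so the beta-actin values are not read as RNA integrity here. The array titles carry a letter, whose meaning the labels do not state. Each Cerberus-Short array shares its letter with 1 control array: replicate 2 with control replicate 9 (letter f), replicate 3 with control replicate 6 (letter H) and replicate 1 with control replicate 4 (letter D). Deviations from the group means correlated across probe sets from 0.517 to 0.852 in these 3 pairs, against a median of -0.131 in the 24 pairs of different letters, so values within pairs are given beside the pooled ones. Control replicates 1 and 2 share the letter B, and the main fit counts them as separate samples. Fits with the letter as a block, and without single letter pairs, are given beside the results. What the 3' to 5' differences contribute to the results was not tested.

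Few probe sets were called with Cerberus-Short, and all of them were lower. Of the 15443 probe sets, 47 fell (0.304%) and 0 were called higher (0%), while before adjustment 197 were lower (1.28%) and 125 higher (0.809%) at a p under 0.05. The count of 47 was 26 without Cerberus-Short replicate 3, and 21 without both arrays of the H pair, which differed most within itself. With a fixed block for the title letter 35 were called lower, of which 30 were among the 47, and the rest of the 47 lost their call. With the letter as a random block all 47 kept it among 63 called. With the spread estimated from only the 12 arrays, 27 were called lower, of which 26 were among the 47. The 47 had a median log2 change of -2.05, which is 4.14-fold lower, and ranged from -3.17 to -0.97. Among them 25 fell by at least 4-fold and 1 by less than 2-fold. The call favours large falls and was made on the same values, so these sizes do not describe all affected transcripts. The 47 fall in 45 clusters by the cluster number in their identifiers, since 2 clusters are present as 2 probe sets each. In bulk RNA, fewer cells expressing a transcript and less of it per cell cannot be told apart.

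**Figure D1:**
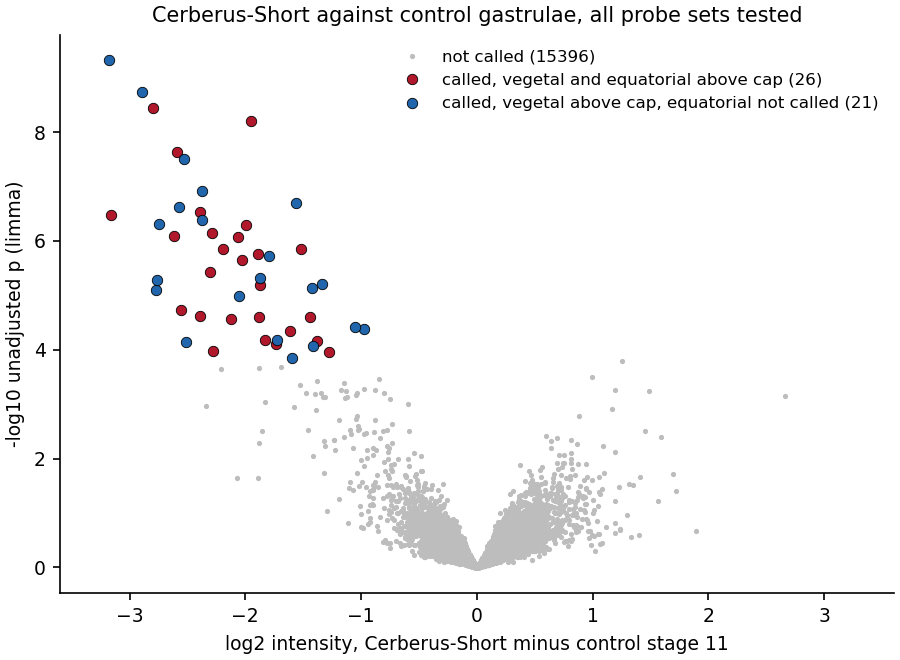
Each point is 1 of 15443 probe sets, with the log2 difference between Cerberus-Short (n = 3) and control stage 11 gastrulae (n = 9) on the horizontal axis and -log10 of the unadjusted limma p on the vertical axis. The 47 coloured probe sets passed the adjusted threshold, and all of them lie on the left, at log2 differences from -3.17 to -0.97.

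The largest fall was that of Xl.6024.1.S1_at. Its intensity was 24.9, 10.9 and 11.0 in Cerberus-Short replicates 1, 2 and 3, against a lowest value of 78.3, a median of 129 and a highest value of 261 in the controls. All 3 injected samples lay below all 9 controls, as the choice of probe sets to name required. The log2 difference was -3.17 ± 0.33 (SE), a 9.03-fold fall (limma, adjusted p = 7.37e-06), and within the title-letter pairs it was -3.53 (f), -2.83 (H) and -3.39 (D).

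This transcript was a vegetal one. It measured 376 and 612 in the vegetal explants and 19.2 and 22.4 in the equatorial explants, against 9.41 to 13.9 in the animal caps. The equatorial level was not called different from the cap level (limma, adjusted p = 0.880). Its level in Cerberus-Short embryos was not called different from the cap level either, with a log2 difference of 0.35 ± 0.41 (SE; limma, adjusted p = 0.997). Over development it ran from 11.8 to 15.3 in eggs, and from 462 to 1233 at stage 18. Cerberus-Short gastrulae lay below Sox17-MO gastrulae, which had 66.3 to 122, by a log2 difference of -2.69 ± 0.41 (SE; limma, adjusted p = 0.00178). Against Mixer-MO gastrulae, which had 14.3 and 35.6, the log2 difference of -0.65 ± 0.45 (SE) did not pass the test (limma, adjusted p = 0.681).

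Xl.1108.1.S1_at had the second largest fall and another tissue pattern. Its intensity was 131, 145 and 16.7 in Cerberus-Short replicates 1, 2 and 3, against a lowest value of 298, a median of 610 and a highest value of 1030 in the controls. The groups did not overlap, again by the choice of the probe set, and replicate 3 lay far below the other injected samples. The log2 difference was -3.16 ± 0.47 (SE), an 8.95-fold fall (limma, adjusted p = 0.000466). Within the pairs the log2 difference was -1.92 (f), -5.83 (H) and -1.18 (D), so replicate 3 carried much of the mean, and without it the log2 difference was -2.15.

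Unlike the first, this transcript was abundant in both lower regions of the embryo. It measured 1182 and 1304 in vegetal explants and 495 and 686 in equatorial explants, against 13.4 to 18.8 in animal caps. The vegetal and equatorial levels both exceeded the cap level (log2 6.26 and 5.17; limma, adjusted p = 8.04e-08 and adjusted p = 1.18e-05), and the vegetal level was not called different from the equatorial one (limma, adjusted p = 0.414). Cerberus-Short gastrulae were lower than Mixer-MO gastrulae, which had 361 and 992 (log2 -3.13 ± 0.64 SE; limma, adjusted p = 0.0314). They were also lower than Sox17-MO gastrulae, which had 400 to 440 (log2 -2.64 ± 0.57 SE; limma, adjusted p = 0.0260).

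No probe set was called higher. The 2 higher ones with the lowest p were Xl.6012.1.A1_at and Xl.7733.1.S1_at, at adjusted p = 0.0514 and adjusted p = 0.0959 (limma). Xl.6012.1.A1_at had intensities of 25.3, 49.1 and 18.2 in Cerberus-Short replicates 1, 2 and 3, against 8.21, 10.8 and 21.0 as the lowest, median and highest control, so the groups overlapped. Not all of its values on the 12 arrays were settled by their written form. Its log2 difference of 1.25 ± 0.28 (SE) passed the threshold in 11 of 32 alternative settings. Within the pairs the log2 difference was 1.23 (f), 0.80 (H) and 0.45 (D).

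Xl.7733.1.S1_at had 42.3, 48.7 and 31.1 in the injected samples, against 13.3, 18.3 and 43.2 in the lowest, median and highest control. The highest control was the f array, the pair of Cerberus-Short replicate 2, so that the f pair differed by 0.17 on the log2 scale, the H pair by 1.22 and the D pair by 0.74. Both probe sets were brighter in whole embryos at stage 18, at 54.0 to 92.2 and at 124 to 149, than at stage 11 in either group.

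The largest fitted difference in the upward direction, log2 2.66 ± 0.69 (SE), belonged to another probe set and was not called (limma, adjusted p = 0.157). Its intensity was 40.7 in Cerberus-Short replicate 1, 629 in replicate 2 and 1323 in replicate 3, against 25.5 to 261 in the controls. It thus lay 35.5-fold above its paired control in the H pair and 2.41-fold in the f pair, and 1.04-fold below it in the D pair. Its mean log2 level was 4.83 in vegetal and 5.76 in equatorial explants, against 5.33 in caps, and none of these differences was called.

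**Figure D2:**
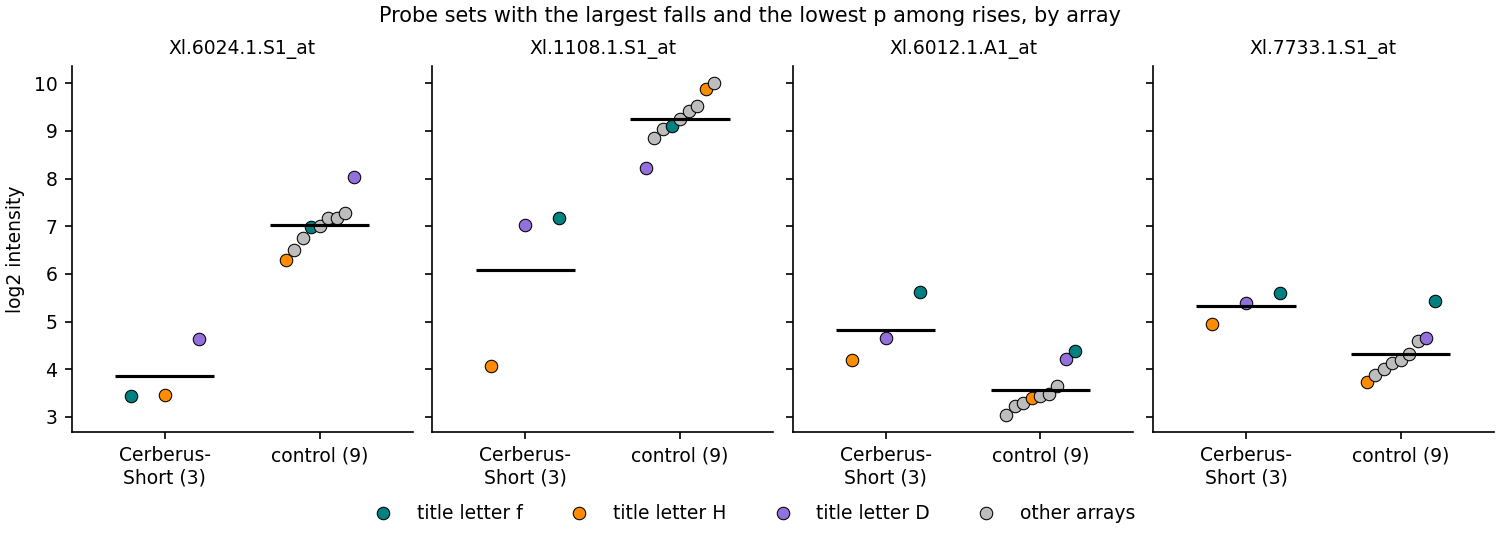
Log2 intensity of 4 probe sets on each array, with Cerberus-Short samples (n = 3) left of controls (n = 9), a bar at the group mean and colours for the title letters that occur in both groups. The groups are apart for the 2 probe sets on the left, which fell and were chosen for not overlapping, and overlap for the 2 on the right, which were not called.

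The falls were seen on every injected array. Relative to the control means, the median over the 47 was -1.55 in Cerberus-Short replicate 1, -1.76 in replicate 2 and -2.40 in replicate 3, against medians from -0.35 to 0.26 on the 9 control arrays. All 47 were below the control mean on each of the 3 injected arrays, a count that the call itself favours. For 43 of the 47 the injected values lay wholly below all 9 controls, as did those of 74 probe sets in the whole table (0.479%), while 9 lay wholly above (0.0583%).

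The 3 title-letter pairs differed in size of effect. The median log2 difference over the 47 was -1.63 in the f pair, -2.54 in the H pair and -1.39 in the D pair, against 0.02, 0.05 and 0.01 over all probe sets tested. The H pair was also the least similar in general. In it 519 probe sets were lower and 480 higher by at least 2-fold, against 144 and 45 in the f pair and 71 and 10 in the D pair. Falls of at least 2-fold in all 3 pairs were found for 31 probe sets (0.201%), of which 28 were among the 47, and rises of that size in all 3 pairs for 0 (0%).

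Because the calls use all 3 pairs, the fit was repeated without each pair and the calls were read in the pair that had been left out. Without the f pair 40 probe sets were called lower, and 39 of them were lower in the f pair, with a median log2 difference of -1.67. Without the H pair 21 were called, and all 21 were lower in it, with a median of -2.54. Without the D pair 47 were called, and all 47 were lower in it, with a median of -1.28. Of all 15443 probe sets, 6999, 6949 and 7280 were lower in the f, H and D pairs. The upward calls were too few to be read in this way. They numbered 0 without the f pair, 4 without the H pair and 6 without the D pair, of which 2 and 1 were higher in the pair left out.

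**Figure D3:**
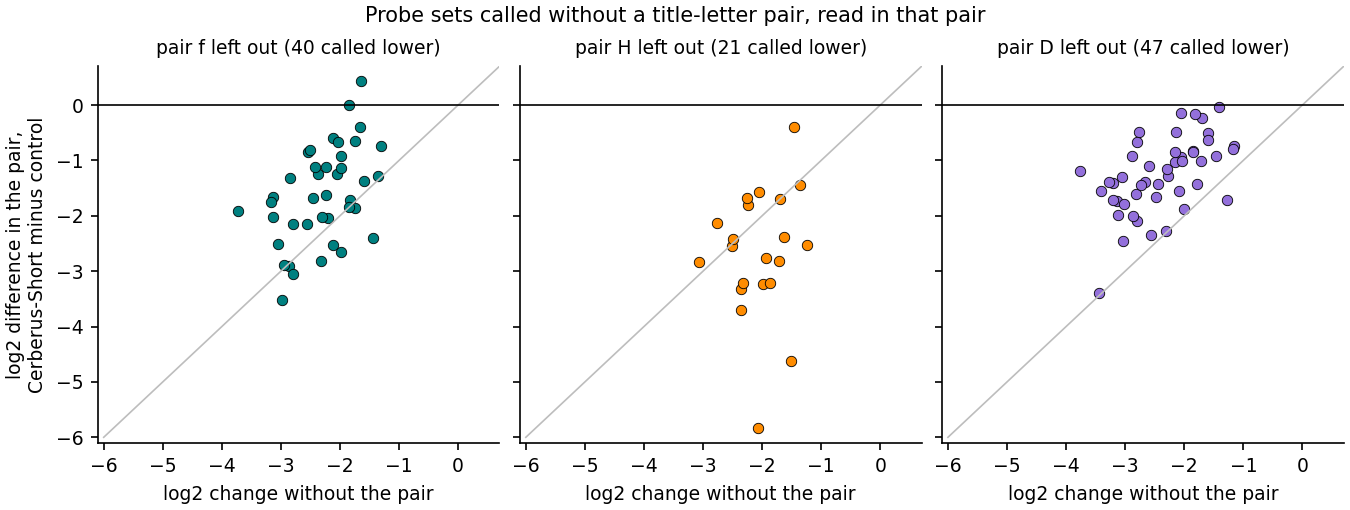
Each point is a probe set called lower in a fit without 1 title-letter pair, with its log2 change in that fit on the horizontal axis and its log2 difference in the pair left out, Cerberus-Short minus control, on the vertical axis. The grey line marks equal values, the black line marks 0, and 39 of 40, 21 of 21 and 47 of 47 points lie below 0 in the f, H and D panels. Of all 15443 probe sets, 6999, 6949 and 7280 were lower in these pairs.

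The explants showed where the affected transcripts are found. At an adjusted p under 0.05 (limma) and a difference of 2-fold or more, all 47 were higher in vegetal explants than in animal caps, as were 993 of all probe sets (6.43%), while 0 of the 47 and 6.64% of all were lower. Of the 47, 26 were also higher in equatorial explants than in caps, against 0.667% of all probe sets, with 0.136% of all lower there. Further, 28 of the 47 were higher in vegetal than in equatorial explants, against 2.38%. Both held for 11 of them and neither for 4, and 0 were called higher in equatorial than in vegetal explants, against 2.40% of all. The 2 vegetal arrays differed for some of the 47, in either direction. In 1 case the log2 level above the caps was 6.19 in vegetal replicate 1 and 3.00 in replicate 2, and in another 4.71 and 5.67. The explant arrays enter the Cerberus-Short contrast only through the shared estimate of spread, but vegetal replicate 2 and equatorial replicate 1 carry the letter H of 1 pair. The equatorial arrays (letters H and K) share no letter with the animal caps (B, B and I). Equatorial and cap arrays alone therefore cannot separate letter from tissue. Vegetal replicate 1 does share the letter B with caps, and vegetal replicate 2 shares H with equatorial replicate 1. With a fixed block for the title letter, all 35 called lower were vegetal above cap, and 16 of them were also equatorial above cap.

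The median log2 level of the 47 was 5.39 in Cerberus-Short gastrulae, against 7.54 in controls. In the explants it was 8.91 in the vegetal and 6.46 in the equatorial region, against 4.02 in the animal cap. Over development it was 4.05 in eggs, 7.54 in stage 11 controls and 6.61 at stage 18. Over all probe sets tested it was 6.16 in caps, 6.11 in eggs, 6.18 in stage 11 controls and 6.09 at stage 18. The egg mean lay within 2-fold of the cap mean for 41 of the 47 and at least 2-fold below it for the other 6, so none was brighter in eggs than in caps by 2-fold. At stage 18 the mean was at least 2-fold above the cap mean for 34. These counts were not made over all probe sets, so they do not set the 47 apart.

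In their group means the injected gastrulae lay between the cap and the control level for most of these transcripts. The injected arrays differed in this. The median log2 level of the 47 was 6.14, 5.82 and 4.71 in Cerberus-Short replicates 1, 2 and 3, against 4.02 in the caps. By the same thresholds Cerberus-Short gastrulae exceeded the animal caps for 13 of the 47, against 0.693% of all probe sets, and were below them for 0, against 0.220%. For the remaining 34 the difference from the caps did not pass the test, which does not show that they had reached the cap level. The mean was above that of the caps for 45 of the 47, a count not made over all probe sets, with a median log2 difference of 1.15. With a fixed block for the title letter the count of 13 was 6, out of 35 called lower. It was 7 of 39 without Cerberus-Short replicate 2 and 24 of 40 with array weights.

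**Figure D4:**
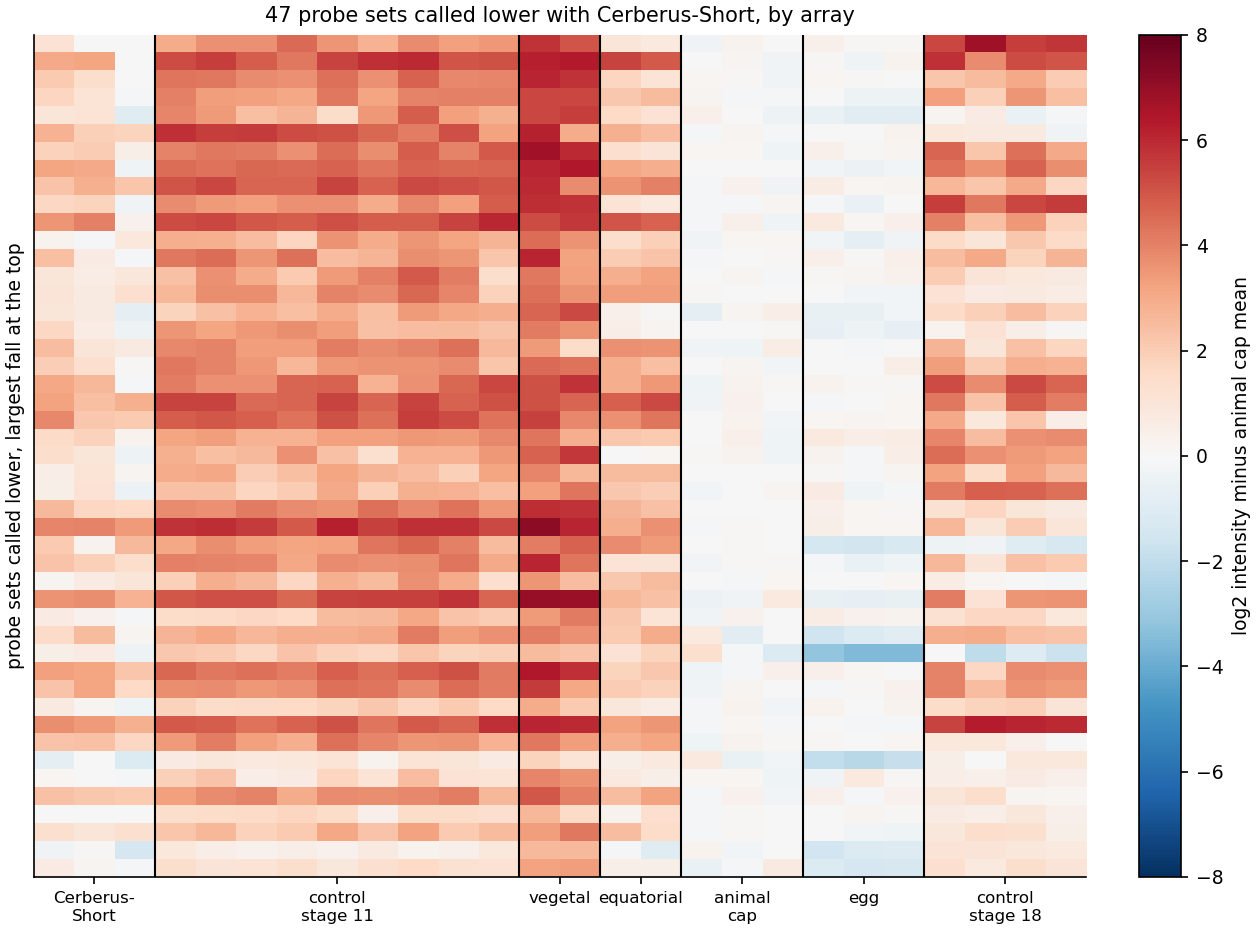
Log2 intensity of the 47 probe sets called lower, relative to the mean of the animal caps, with 1 row per probe set, sorted by the size of the fall, and 1 column per array. Cerberus-Short columns are paler than control columns, and vegetal columns are the darkest red in most rows. Egg columns are near the cap level for 41 of the 47, a count not made over all probe sets.

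The reverse view, from tissue to response, used groups of probe sets chosen by their differences between explants. The calls behind these groups use an estimate of spread shared by all 31 arrays, so the groups are not fully independent of the Cerberus-Short and control arrays. The first group had 94 members without Cerberus-Short replicate 3 and 80 to 87 when single control arrays were left out. In 82 probe sets both the vegetal and the equatorial explants were above the caps by at least 2-fold. Of these, 26 fell with Cerberus-Short (31.7%), against 0.304% of all probe sets. Their median log2 change was -0.99, against 0.01 over all probe sets, 41 were lower by at least 2-fold with or without a call, and 48 were lower and 1 higher at an unadjusted p under 0.05. The median log2 level of the 82 was 6.93 in Cerberus-Short gastrulae, against 8.09 in controls. The log2 changes of the 82 had quartiles of -1.85 and -0.37 and a highest value of 0.45.

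Within the title-letter pairs the median log2 difference of the 82 was -0.58 (f), -1.67 (H) and -0.30 (D). Members were lower in 63, 77 and 56 cases, against 6999, 6949 and 7280 of all 15443 probe sets. In all 3 pairs 50 of the 82 were lower, against 1436 of all. With a fixed block for the title letter the group had 65 members, of which 16 fell. The count of 26 was 17 without Cerberus-Short replicate 3 and 11 without both arrays of the H pair, in redrawn groups of 94 and 96 members. Without equatorial replicate 1 the group had 49 members with 17 falls, and without equatorial replicate 2 it had 53 with 16.

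Within this group, members with a higher vegetal than equatorial level fell in a larger share. Of 16 such probe sets 11 fell (68.8%), all 16 had a negative change, and the median log2 change was -1.65. Of the 66 others 15 fell (22.7%), with a median of -0.69. The median log2 level of the 16 was 8.41 in controls and 4.05 in caps, and that of the 66 was 7.96 and 4.78. The subgroups thus also differ in how far a fall to the cap level would reach. The difference between these 2 subgroups was not tested.

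A much larger group of 911 probe sets was above the caps in vegetal explants without an equatorial call. In it 21 fell (2.31%), against 0.304% of all probe sets, with a median log2 change of -0.09. The median log2 level of the 911 was 6.54 in controls and 5.84 in caps, against 8.09 and 4.52 for the 82. By these medians a fall to the cap level would be much smaller in the 911. The shares of the 2 groups are therefore not compared on equal terms, and what this contributes was not tested. The 21 called falls ranged from -3.17 to -0.97 on the log2 scale. The group was divided further by level in the egg. The egg mean was at least 2-fold below the vegetal mean for 411 of the 911, and all 21 falls were among them (5.11%), with a median log2 change of -0.16. In the other 500, whose median log2 level was 7.50 in eggs, 6.50 in controls and 5.95 in caps, 0 fell. Against 0.304% of all probe sets, a group of this size is too small for that 0 to be read as a lower share. At an unadjusted p under 0.05, 7 of the 500 were lower and 1 higher, where the shares of all probe sets were 1.28% and 0.809%. All calls in this group thus came from transcripts that were dimmer in eggs than in vegetal explants. The count of 21 was 9 without Cerberus-Short replicate 3 and 10 without both arrays of the H pair, with the group redrawn in each fit.

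Transcripts more abundant in the animal cap were read in the same way. Among 1025 probe sets lower in vegetal explants than in caps, 0 were called lower, against 0.304% of all probe sets, and 0 higher, against 0%. At these shares few or no calls would be found in a group of this size, so neither 0 is read as a result about it. At an unadjusted p under 0.05, 3 were lower, against 1.28% of all, and 22 higher, against 0.809%. Their median log2 change was 0.07, against 0.01 over all probe sets. In the pairs their median was 0.01 (f), 0.12 (H) and 0.13 (D). In 21 probe sets above the caps in equatorial explants without a vegetal call, 0 were called, a group too small to read against a share of 0.304%, and the median was -0.22, with -0.08 (f), -0.35 (H) and 0.39 (D) in the pairs, so the sign differed between pairs. Of the 100 probe sets that were lower by at least 2-fold with or without a call (0.648%), 41 lay in the group of 82 and 47 in that of 911. Of the 42 that were higher by as much (0.272%), 38 lay in none of these tissue groups, as did 13404 of all 15443 probe sets.

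**Figure D5:**
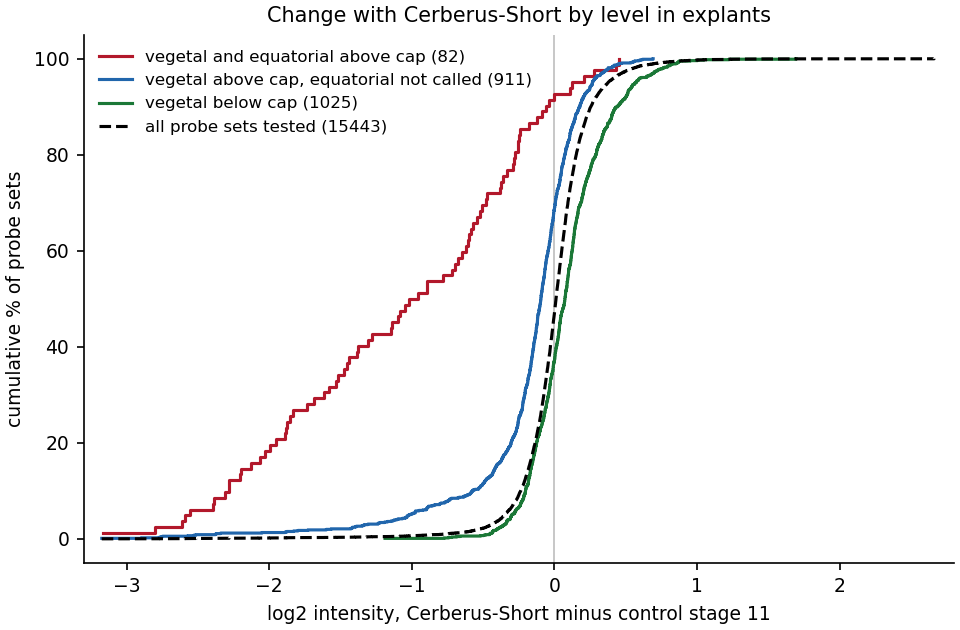
Cumulative percentage of probe sets against the log2 difference between Cerberus-Short and control stage 11 gastrulae, for 3 groups drawn up from the explant arrays and for all probe sets tested. The curve for the 82 probe sets above the caps in both vegetal and equatorial explants lies far to the left, with a median of -0.99. The 911 with a vegetal call alone show a left tail around a median of -0.09. The 1025 below the caps have a median of 0.07. By median levels, controls lay further above the caps in the 82 than in the 911.

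The group of 82 was also compared with gastrulae injected with morpholinos against 2 transcription factors that act in endoderm formation. These are the homeodomain protein Mixer and the HMG-box protein Sox17. The arrays do not show how far the morpholinos lowered either protein. Both contrasts use the same Cerberus-Short arrays, and the control arrays enter them through the estimate of spread and the choice of the 82. Cerberus-Short gastrulae were lower than Sox17-MO gastrulae for 11 of the 82 (limma, adjusted p under 0.05), against 0.240% of all probe sets, and higher for 1, against 0.233%. The median log2 difference was -0.49, with median levels of 6.93 in Cerberus-Short and 7.55 in Sox17-MO gastrulae. They were lower than Mixer-MO gastrulae for 13 of the 82, against 0.181%, and higher for 0, against 0.0259%, with a median difference of -0.85 and a median level of 8.13 in Mixer-MO gastrulae. All 11 of the Sox17-MO count and 11 of the 13 of the Mixer-MO count were among the 47 called lower against controls. The same Cerberus-Short values enter those calls. A fixed block for the title letter made the Sox17-MO and Mixer-MO counts 4 and 0 in a redrawn group of 65. Sox17-MO replicate 2 shares the letter f with Cerberus-Short replicate 2, and no Mixer-MO array shares a letter with a Cerberus-Short array. Without Cerberus-Short replicate 3 the Sox17-MO count was 7 in a redrawn group of 94. Without equatorial replicate 1 it was 7 of 49, and without equatorial replicate 2 it was 5 of 53.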

How the data were processed

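Total RNA of 31 samples was measured on Affymetrix Xenopus arrays. Per the submitters' processing notes and the labels' protocols, arrays were scanned on a GeneChip Scanner 3000, read with GCOS 1v4 and processed in GeneSpring 7.1 with RMA. The deposited values are linear RMA intensities, written so that an intensity of 1000 or more appears divided by 1000 with 3 decimals. Of 483941 values, 90.54% were settled by size and written form. The rest took the reading nearest to the settled values of their probe set, where there were any. In 20 of the probe sets tested no value was settled, and their values were kept as written, so their level is open. Of the probe sets called lower, 0 were among these 20. The nearest settled values were also used in a test. It recovered 5150 of 5156 settled values that had been hidden. Leaving out 120 control probe sets, and 48 more whose reading was undecided, left 15443 for testing.

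Log2 intensities were fitted with limma 3.58.1 (R 4.3.3) over all 31 arrays as 9 group means with empirical Bayes variances, and p-values were adjusted by Benjamini-Hochberg. Calls used an adjusted p under 0.05, and tissue comparisons also a 2-fold difference. The probe sets named are the 2 with the largest fall among those called and wholly outside the control values, and, with none called higher, the 2 higher ones of smallest p. The largest fitted rise was added after its values were seen. The comparison of vegetal with equatorial explants was also added after the data were seen, and the division by egg level was not planned. The title letter, replicate number, scaling, filters and left-out arrays were varied. The labels' replicate numbers did not pair samples (correlations -0.406, 0.078 and 0.370), whereas title letters did by the same measure. Members, groups and lists were chosen with earlier results of these data known. Gene lists, tissue markers and probe sequences were not used here because no table paired probe sets with genes. Microarray precision here is limited by the number of arrays.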

Additional observations from a re-analysis of the deposited data

How the results depend on the processing

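The labels' replicate numbers did not pair the samples. With the replicate number as a block on the 12 arrays (2 residual degrees of freedom), 0 probe sets were called lower, so the counts of called falls in every tissue group and of those still above the cap were also 0. The log2 change of Xl.6024.1.S1_at was then -3.10 (limma, adjusted p = 0.450) and that of Xl.1108.1.S1_at -3.12 (limma, adjusted p = 0.645). Fitting only the 3 title-letter pairs, also with 2 residual degrees of freedom, called 2 lower, of which 2 were vegetal above cap, 1 vegetal above equatorial, 1 in the group of 82, 1 in the group of 911 and 1 still above the cap, and Xl.1108.1.S1_at had -2.98 (limma, adjusted p = 0.998). Fitting only the 12 arrays called 27, of which 27 were vegetal above cap, 16 vegetal above equatorial, 14 in the group of 82 and 13 in that of 911. Where a setting refitted the explant arrays, the groups of 82 and 911 were drawn again. Without both arrays of the H pair these counts were 21, 21, 15, 11 and 10, with 8 still above the cap. The vegetal and equatorial arrays of letter H stayed in that fit. The redrawn group of 82 then had 96 members, of which 6 were lower than in Sox17-MO. The title letter as a fixed block called 35 lower, 16 of them in the redrawn group of 65 members and 6 still above the cap. Of those 65, 4 were lower than in Sox17-MO and 0 lower than in Mixer-MO. Array weights gave 11 falls in the redrawn group of 911 and 24 still above the cap. In the redrawn group of 82, array weights gave 19 of 122 members lower than in Sox17-MO. The random letter block gave 17 of 100, and a pseudocount of 16 gave 7 of 67.

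The count of 0 called higher moved with the setting, to 2 under the random letter block, 1 under quantile normalisation and 1 with a variance trend. It was 2 with array weights, 6 without both arrays of the D pair and 4 without both arrays of the H pair. Leaving out single arrays gave 26 to 54 called lower (lowest without Cerberus-Short replicate 3) and 0 to 9 called higher (highest without Cerberus-Short replicate 1, and 4 without replicate 3 or control replicate 9). Of those called lower, 26 to 54 were vegetal above cap and 18 to 30 vegetal above equatorial. The group of 82 then had 49 to 94 members and 16 to 29 falls, that of 911 had 9 to 30, and 7 to 17 stayed above the cap. Between 25 and 47 of the calls were shared with those reported. Of the members of the group of 82 as redrawn each time, 5 to 14 were lower than in Sox17-MO and 9 to 16 lower than in Mixer-MO. Causes of these moves were not tested. No setting reversed the direction of a named probe set.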
